A study of Danio rerio with 17 samples.

Results

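The cytochrome P450 (P450) genes of the zebrafish liver were examined as 1 gene family across diets, Oligo-Fucoidan treatment and transgenic lines. A gene was counted as a member when its probe set carried a single annotated symbol that began with cyp and a number, with cyp51 left out, and each gene was read from its probe set with the highest mean over the arrays. This gave 84 of the 20908 genes with a single symbol, in 16 families. The arrays held 1 deposited log2 signal for each probe set, so a difference of 1 is a 2-fold change. In all, 17 liver arrays were used, labelled as taken at an age of 6 months, with female fish named in the protocol. The HBx,src,p53 line carried the HBx and src transgenes and a heterozygous p53 mutation (p53−/+), and it was hybridised in 3 arrays of overfed fish given Oligo-Fucoidan (DIO+OF), 3 of overfed fish (DIO) and 2 of fish on the normal diet (NOR). The HBx,src line carried the same transgenes with no p53 mutation named, with 3 arrays each of DIO+OF, DIO and NOR fish. DIO fish received 83 mg of Artemia cysts per fish and day for 2 months from the age of 3 months, against 6.9 mg in NOR fish. Oligo-Fucoidan (OF), a low molecular weight preparation of a brown seaweed polysaccharide, was dosed orally by gavage (300 mg/kg, 3 times a week) over 1 month from the age of 4 months. Diet and treatment by this protocol end before the age of 6 months that the labels give, and the sources used here do not say why. The weekly schedule and the anesthesia come from the methods of the study, which also describe irradiated fish, while the labels of these arrays name no irradiation.

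P450 enzymes are haem proteins that insert oxygen into small molecules, most of them with electrons passed on by a reductase. Liver P450s of families 1 to 3 act mainly on drugs, pollutants and polyunsaturated fatty acids, family 4 hydroxylates fatty acids, and further families turn cholesterol into bile acids or build and break down steroid hormones, vitamin D and retinoic acid. Many of them are induced by nuclear receptors and the aryl hydrocarbon receptor, which makes the hepatic P450 profile a common readout of diet and of foreign compounds. Zebrafish carry many tandem copies of family 2 that have no direct counterpart in mammals.

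Several features of the design limit what the arrays can show. The fabp10a promoter drives both transgenes in hepatocytes of every fish, so no array comes from a liver without an oncogene. The lines were labelled as separate batches, so a line cannot be told apart from its batch, and levels were compared within each line alone. The methods describe gavage under anesthesia and the labels give the DIO fish a mock treatment without naming what it was, so an effect of OF cannot be told apart from one of gavage or anesthesia. Nothing in the labels says that each array came from a separate fish, and the p-values measure only the spread between these arrays. Array medians lay between 2.55 and 2.68 in HBx,src,p53 and between 2.1 and 2.21 in HBx,src, and the interquartile range was also wider in HBx,src,p53 (2.89 to 3.34) than in HBx,src (1.80 to 2.03). Summed hepatocyte markers (10 genes) were high in every array, from 15.32 to 16.14, and all 10 were measured. In 1 array, HBx,src,p53 DIO+OF replicate 3, the egg yolk precursor gene vtg2 had a signal of 2.76, and the remaining 7 arrays of that line lay between 13.86 and 14.03. This goes against a female liver as the protocol names it, and so do the estrogen receptor gene esr1 (5.89, others 9.76 to 10.82) and the steroid dehydrogenase gene hsd17b3 (10.85, others 1.75 to 3.36), so the sex of that fish is in doubt. Calls of HBx,src,p53 are therefore also given without that array.

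Of the 84 P450 genes, 49 belonged to families 1 to 3 (39 of them to family 2), 4 to family 4, 18 to the bile acid and sterol families (7, 8, 27, 39 and 46), 4 to the vitamin catabolism families (24 and 26), 8 to the steroid hormone families (11, 17, 19 and 21) and 1 to family 20. The family number set the group, so cyp27b1, the vitamin D activating enzyme, and cyp27c1 were counted with family 27. Signals reached or passed the array median in all 17 arrays for 43 members and stayed under it in all 17 for 6 members. These 6 were cyp2aa3, cyp2aa3v1, cyp11a1.2, cyp17a1, cyp21a2 and cyp27c1, and 3 of them belong to steroid hormone synthesis, which takes place mainly in gonad and interrenal tissue. In the RefSeq gene order, 82 members could be placed and 52 of them lay in 11 clusters of neighbours with at most 2 other genes between. The longest clusters held 11 genes (cyp2n13, the cyp2ad and cyp2p genes, cyp2v1 and cyp2j20), 10 genes (9 cyp2aa genes and cyp2ae1) and 7 genes (cyp2k). Tandem copies can be alike in sequence, and signal shared between them by cross-hybridisation was not tested.

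All calls among the P450 genes within a line fell in HBx,src,p53, most of them in fish given OF. A gene was called changed at an adjusted p under 0.05 in limma, with p-values adjusted over all 75212 probe sets. OF against DIO in HBx,src,p53 gave 5 of 84 P450 genes called, all higher with OF (5.95%), beside 2.35% of all genes called in either direction. At the threshold of the methods, at least a 2-fold change with an unadjusted p under 0.05, 17 P450 genes were higher with OF (20.2%) and 2 lower (2.38%), where the shares over all genes were 5.48% and 2.47%. The median log2 difference of the members was 0.42, with 56 of 84 above 0, against 0.04 over all genes. Hepatocyte markers lay higher to a like degree, 9 of 10 above 0 with a median of 0.37 and 1 called higher. In a bulk liver sample, more RNA per cell and more cells of a type cannot be told apart.

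**Figure D1:**
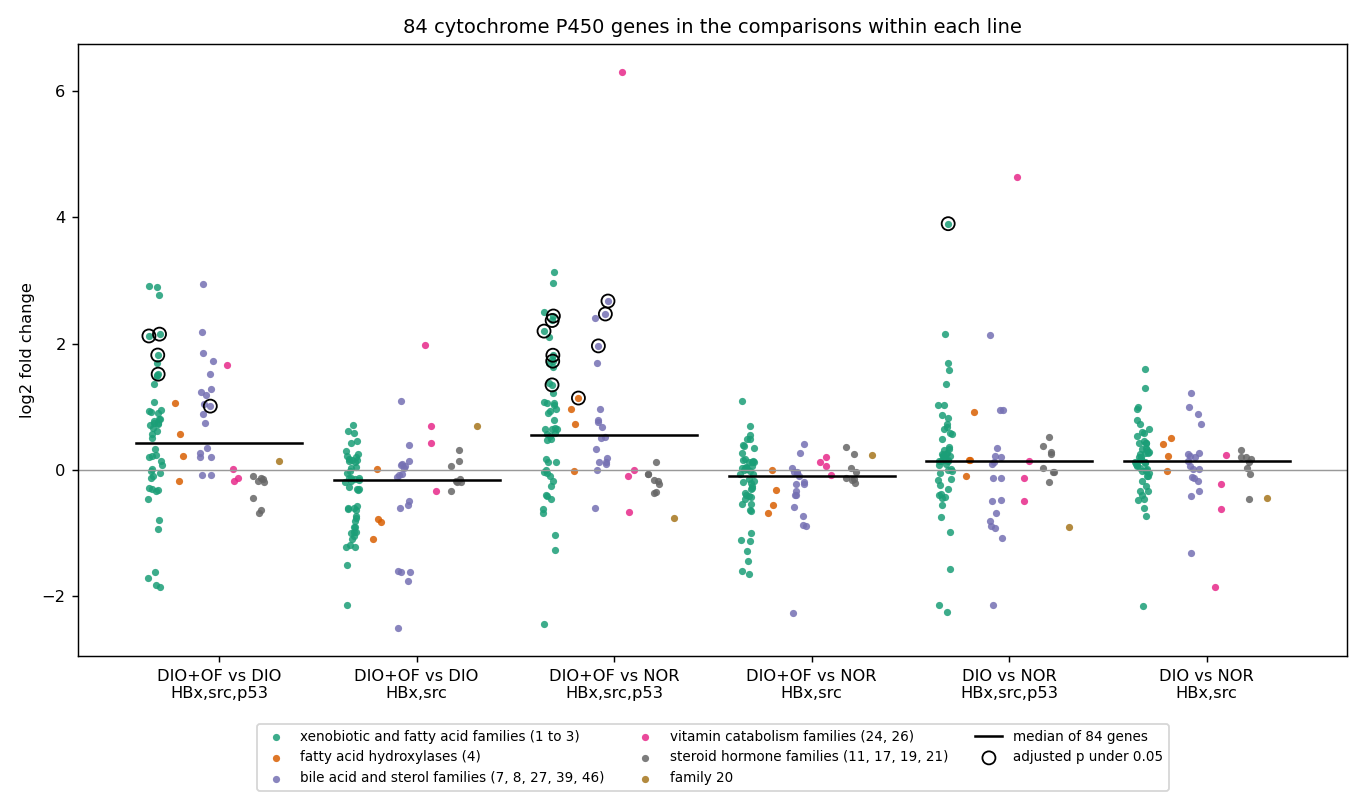
Log2 fold changes (y axis) of the 84 P450 genes in the 6 comparisons within a line, with a point for each gene, colours for the families and a black bar for the median; circles mark genes with an adjusted p under 0.05. The circles lie in the HBx,src,p53 comparisons alone (5, 10 and 1 genes), all of them above 0.

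Among the families that act on foreign compounds, cyp1a, the classical target of the aryl hydrocarbon receptor and an oxidase of polycyclic aromatic hydrocarbons, had the smallest adjusted p. Its log2 signals were 11.42, 11.51 and 12.06 in DIO+OF arrays of HBx,src,p53, against 9.42, 9.61 and 9.59 in DIO arrays. The groups did not overlap, and cyp1a was 4.35-fold higher with OF (log2 fold change 2.12 ± 0.29 SE, adjusted p = 0.0033, limma). It was called in all 17 fits that each left out a single array. Without the array that lacked vtg2 the difference was 1.92 (adjusted p = 0.0188), and in a fit on the HBx,src,p53 arrays alone the adjusted p was 0.0645. The other called genes of this group belong to subfamilies found in fish. In cyp2n13, a relative of the mammalian CYP2J fatty acid epoxygenases, the signals were 8.99, 9.21 and 9.81 in DIO+OF arrays and 7.49, 7.40 and 7.67 in DIO arrays. All DIO+OF values of cyp2n13 lay above all DIO values (1.82 ± 0.37, adjusted p = 0.0291; 0.0401 in the line alone). For cyp2x7, 6.67, 7.37 and 7.68 were measured in DIO+OF arrays and 5.62, 5.02 and 4.65 in DIO arrays, again with no overlap (2.15 ± 0.46, adjusted p = 0.0353; 0.0698 in the line alone). The signals of cyp2aa2 were 7.10, 7.69 and 8.37 in DIO+OF arrays and 5.94, 6.65 and 6.03 in DIO arrays (1.51 ± 0.35, adjusted p = 0.0466; 0.127 in the line alone). Its lowest DIO+OF array lay above its highest DIO array by less than the spread within either group. The call of cyp2aa2 was lost without any single DIO or NOR array of HBx,src, the line not compared here. Families 1 to 3 held 4 of the 5 called genes, 34 of their 49 members were above 0 and their median was 0.62. Members of the same families that were not called included cyp2x8 (1.69 ± 0.40, adjusted p = 0.0532), cyp1d1 (2.91 ± 0.81, adjusted p = 0.0988) and cyp2r1, a vitamin D hydroxylase in mammals (2.89 ± 1.1, adjusted p = 0.229). Of the 5 family 1 genes, 3 lay above 0 and 2 below, with a median of 0.235. Signals of cyp1c1 were 3.64, 3.67 and 2.35 in DIO+OF arrays and 4.45, 4.00 and 3.61 in DIO arrays, with overlap. Those of cyp1b1 were 2.29, 2.55 and 1.90 against 2.82, 2.42 and 1.91. The highest DIO+OF array of cyp1d1 was the array that lacked vtg2 (8.79, others of the line 3.08 to 5.59). Only cyp2aa7 (−1.83 ± 0.55, adjusted p = 0.128) and cyp2aa11 (−1.62 ± 0.53, adjusted p = 0.159) were lower with OF at the threshold of the methods, and neither was called.

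**Figure D2:**
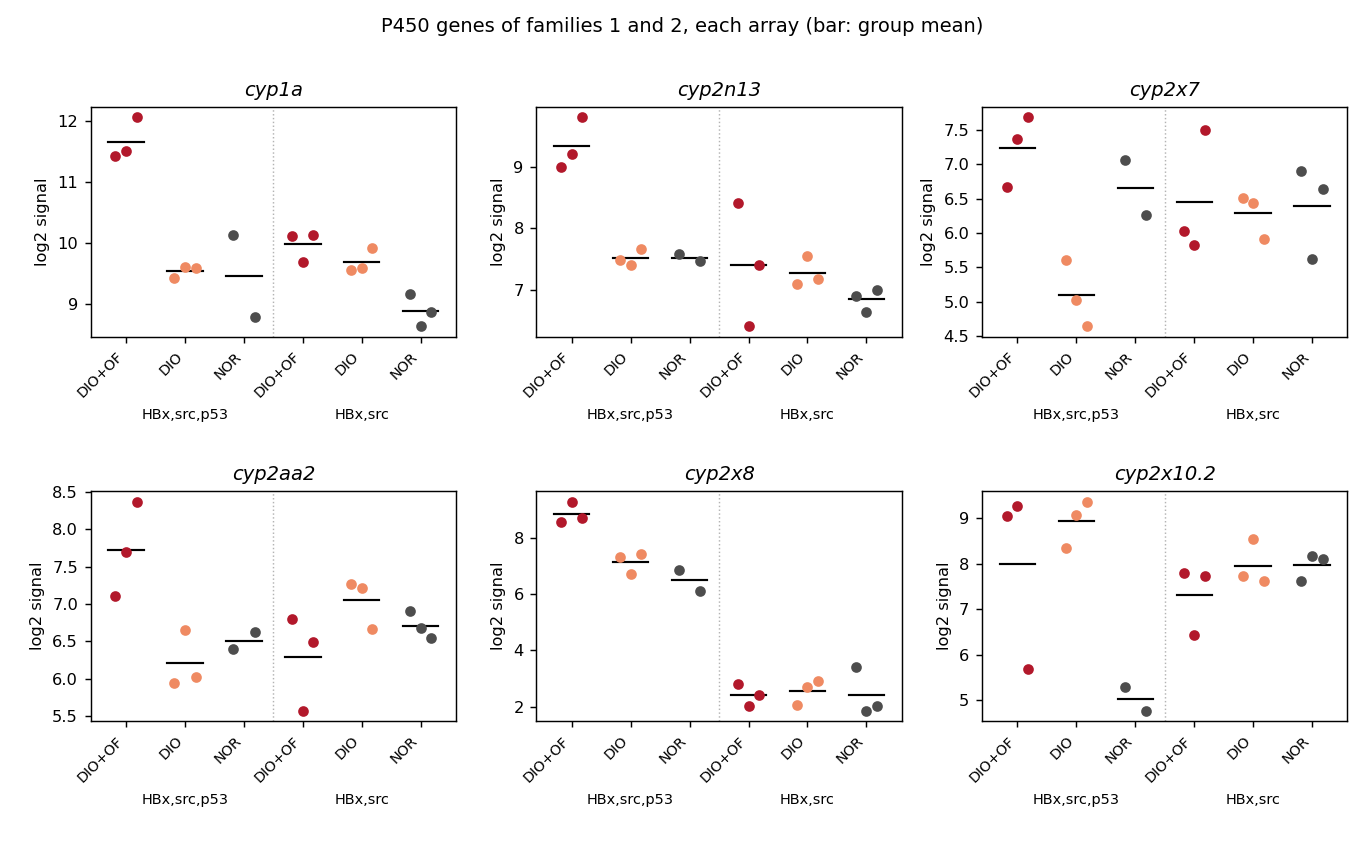
Log2 signal (y axis) of 6 genes of families 1 and 2 in each array, with a point for each array and a bar for the group mean; the HBx,src,p53 groups stand left of the HBx,src groups. In HBx,src,p53 the DIO+OF points of cyp1a, cyp2n13, cyp2x7, cyp2aa2 and cyp2x8 lie above all DIO points, and a single DIO+OF array of cyp2x10.2 lies at 5.68.

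The bile acid and sterol genes also lay higher with OF in HBx,src,p53. Of these 18 genes, 16 were above 0 with a median of 1.02, against 0.04 over all genes. Hepatocyte markers also lay higher, as given above. At the threshold of the methods 9 of the 18 were higher (50%), beside 5.48% of all genes. These counts include the array that lacked vtg2, and the group is not given without it. In that array cyp46a1.2 and cyp46a1.4 lay more than 1 log2 unit above the remaining 7 arrays of the line. No member of the group lay that far below them. A single member of the 18 was called, beside 2.35% of all genes. That member was cyp27a1.4, a copy of the mitochondrial sterol hydroxylase that in mammals starts the acidic pathway of bile acid synthesis. Its signals were 4.34, 4.76 and 4.53 in DIO+OF arrays and 3.44, 3.77 and 3.40 in DIO arrays. The groups of cyp27a1.4 did not overlap (1.01 ± 0.21, adjusted p = 0.0308; 0.0852 in the line alone). The copies cyp27a1.1 and cyp27a1.2 lie beside it in the genome. For cyp27a1.1, the arrays gave 8.82, 8.74 and 9.36 with OF and 7.59, 7.76 and 6.41 in DIO (1.72 ± 0.56, adjusted p = 0.158). For cyp27a1.2, they gave 8.01, 8.14 and 8.37 with OF and 7.23, 6.81 and 5.91 in DIO (1.52 ± 0.48, adjusted p = 0.141). Neither was called, and in both every DIO+OF array lay above every DIO array. In cyp46a1.3, a copy of the cholesterol hydroxylase known best from mammalian brain, DIO+OF arrays gave 7.17, 6.86 and 7.62 and DIO arrays 5.25, 5.33 and 5.53 (1.85 ± 0.46, adjusted p = 0.0623). The largest difference of the group was in cyp7a1, the rate-limiting enzyme of the classical pathway of bile acid synthesis, with 5.63, 3.69 and 6.05 in DIO+OF arrays and 2.24, 2.08 and 2.21 in DIO arrays. The DIO values of cyp7a1 lay under the medians of their arrays and the DIO+OF values were widely spread, and the gene was not called (2.94 ± 0.83, adjusted p = 0.102). The oxysterol hydroxylase gene cyp39a1 had 6.02, 4.39 and 6.85 in DIO+OF arrays and 5.66, 2.46 and 2.57 in DIO arrays, and these groups overlapped (2.19 ± 0.86, adjusted p = 0.243). A further cyp7a1 copy, cyp7a1b, differed by 1.27 ± 0.57, the oxysterol hydroxylase gene cyp7b1 by 0.88 ± 0.71 and cyp8b1.3, a copy of the hydroxylase that sets the share of cholic acid in mammals, by 0.75 ± 0.29, and the groups of all 3 overlapped.

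**Figure D3:**
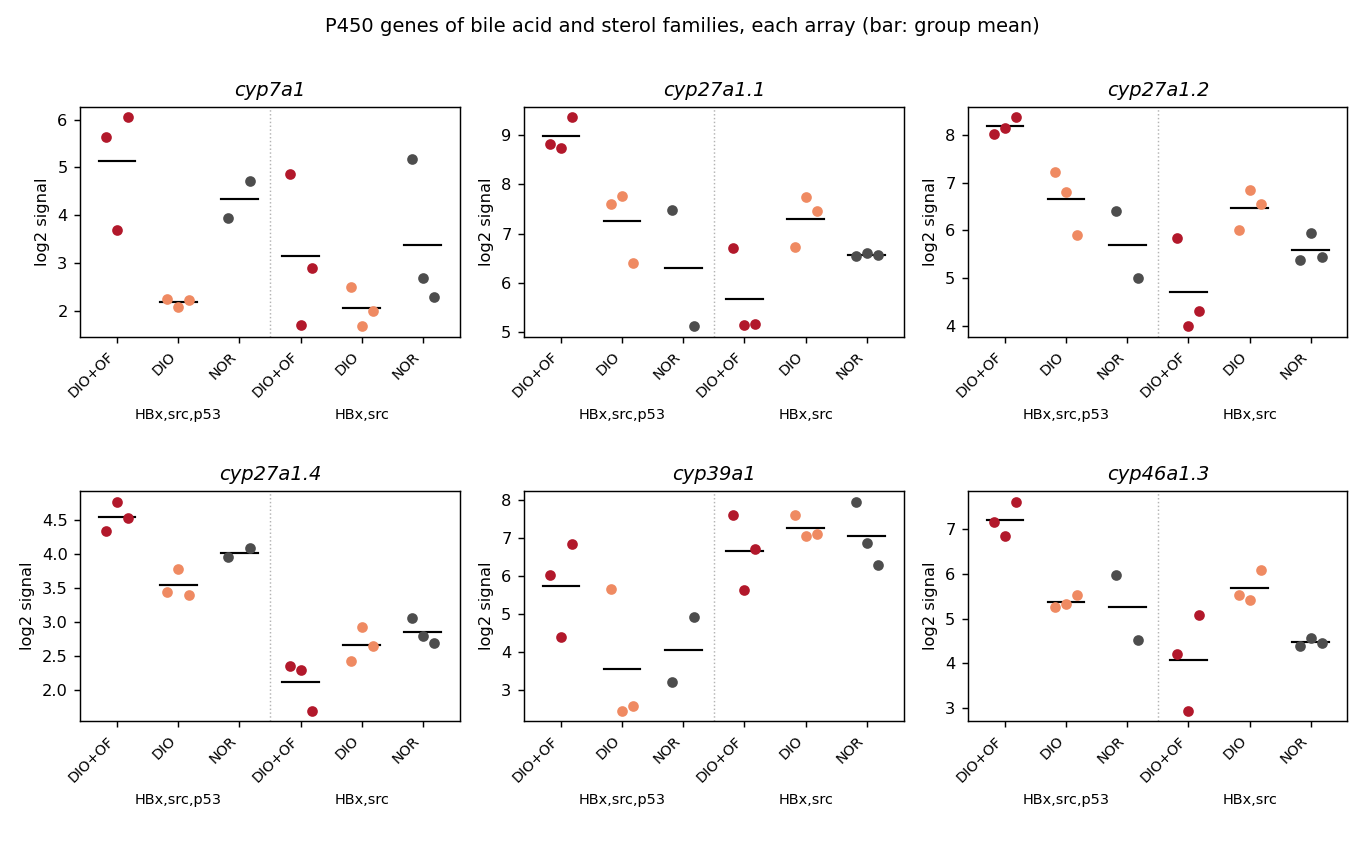
Log2 signal (y axis) of 6 bile acid and sterol P450 genes in each array, with a point for each array and a bar for the group mean; HBx,src,p53 groups stand left of HBx,src groups. With OF the cyp27a1 copies and cyp46a1.3 lie above DIO in HBx,src,p53 and below DIO in HBx,src.

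The number of calls in this comparison rested on single arrays. Without the array that lacked vtg2, the 5 called genes became 1 (cyp1a). Adjusted p then was 0.123 for cyp2n13, 0.0961 for cyp27a1.4, 0.144 for cyp2x7 and 0.181 for cyp2aa2. The median over the members was 0.33 and 59 of 84 lay above 0 in that fit. The count was also 1 without DIO replicate 3 or DIO+OF replicate 2 of HBx,src,p53, with cyp1a alone called, and it was 2 without DIO replicate 1 and 3 without DIO replicate 2. With the HBx,src,p53 arrays alone, cyp2n13 was the single call. Markers of other tissues were compared between the same arrays. Summed ovary markers (12 genes) ranged from 5.63 to 5.88 in DIO+OF arrays against 6.24 to 8.14 in DIO arrays, and 2 of 12 were called lower. Red cell markers (6 genes) ranged from 9.18 to 11.11 in DIO+OF arrays and from 8.08 to 9.33 in DIO arrays, with overlap. Exocrine pancreas markers (12 genes) ranged from 10.52 to 14.53 in DIO+OF arrays and from 12.51 to 14.11 in DIO arrays, also with overlap. Summed hepatocyte markers ranged from 15.69 to 16.14 in DIO+OF arrays and from 15.49 to 15.70 in DIO arrays, with the 1 call higher given above. The part of these markers in the P450 differences was not tested.

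In HBx,src, OF against DIO gave 0 of 84 P450 genes called by limma (0.732% of all genes), with 20 at an unadjusted p under 0.05, 2 higher and 18 lower with OF. At the threshold of the methods 0 members were higher with OF and 7 lower (8.33%), where the shares over all genes were 5.51% higher and 2.14% lower. The median of the members was −0.16 with 31 of 84 above 0, against −0.01 over all genes. The 7 lower members included 4 bile acid and sterol genes. For cyp27a1.2 the HBx,src arrays gave 5.83, 4.00 and 4.31 with OF and 6.01, 6.85 and 6.56 in DIO (−1.76 ± 0.48, adjusted p = 0.13). For cyp46a1.3 they gave 4.20, 2.93 and 5.07 with OF and 5.52, 5.43 and 6.09 in DIO (−1.61 ± 0.46, adjusted p = 0.145). For cyp27a1.1 they gave 6.72, 5.16 and 5.17 with OF and 6.72, 7.74 and 7.45 in DIO (−1.62 ± 0.56, adjusted p = 0.25). In each of these genes the DIO+OF arrays lay under the DIO arrays, in cyp27a1.1 by less than 0.01 at the closest pair. The remaining copy cyp27a1.4 gave 2.34, 2.30 and 1.69 with OF and 2.43, 2.93 and 2.64 in DIO, also without overlap. These signals of cyp27a1.4 were dim, near the array medians of the line (2.1 to 2.21), and 1.69 lay under the median of its array. The vitamin D activating gene cyp27b1 had 4.46, 4.54 and 4.38 in DIO+OF arrays and 8.51, 7.45 and 4.96 in DIO arrays, with a wide spread among the DIO arrays (−2.51 ± 0.95, adjusted p = 0.3). Outside these families, the fatty acid hydroxylase cyp4v2a differed by −1.09 ± 0.37 (adjusted p = 0.231), cyp2k18 by −1.19 ± 0.38 (adjusted p = 0.204) and cyp1d1 by −2.13 ± 0.81 (adjusted p = 0.304). Without HBx,src DIO+OF replicate 1, cyp27a1.2 and cyp2ad3 were called and the count was 2. Exocrine pancreas markers summed to 8.42 to 9.55 in DIO+OF arrays and 9.37 to 11.78 in DIO arrays of this line (12 of 12 below 0, 0 called by limma, 1 at an unadjusted p under 0.05), and their part was not tested.

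The OF contrast was then compared between the lines, as the HBx,src,p53 contrast minus the HBx,src contrast in the same fit. In this difference 3 of 84 members were called, all above 0 (3.57%), beside 1.3% of all genes, and all 3 are sterol hydroxylase genes. By the threshold of the methods, 21 members differed above 0 (25%) and 0 below it, beside 7.10% and 6.22% of all genes. The called genes were cyp46a1.3 (3.46 ± 0.64, adjusted p = 0.0316), cyp27a1.4 (1.56 ± 0.30, adjusted p = 0.0326) and cyp27a1.2 (3.29 ± 0.68, adjusted p = 0.0441). In each of the 3, all DIO+OF arrays lay above all DIO arrays in HBx,src,p53 and below them in HBx,src. The difference for cyp1a was 1.83 ± 0.42 (adjusted p = 0.0621), for cyp2aa2 2.28 ± 0.49 (adjusted p = 0.0516) and for cyp1d1 5.04 ± 1.14 (adjusted p = 0.0605), and none of these was called. For cyp1d1 the DIO+OF arrays of HBx,src,p53 gave 4.88, 5.59 and 8.79, the last from the array that lacked vtg2. Over the 84 members the median difference was 0.61 with 62 above 0, against 0.034 over all genes. The hepatocyte markers differed as much, 10 of 10 above 0 with a median of 0.68 and 0 called by limma (2 at an unadjusted p under 0.05), and their part in the P450 difference was not tested. Of the members, 24 were above 0 in both lines, 32 above 0 in HBx,src,p53 and below it in HBx,src, 7 the other way round and 21 below 0 in both. Among the 18 bile acid and sterol genes these counts were 7, 9, 0 and 2. The 3 calls were lost without the array that lacked vtg2, when adjusted p was 0.074 for cyp46a1.3, 0.0723 for cyp27a1.4 and 0.101 for cyp27a1.2. The count was also 0 without DIO replicate 2, DIO replicate 3 or DIO+OF replicate 2 of HBx,src, and without DIO replicate 3 or DIO+OF replicate 2 of HBx,src,p53. It was 1 without HBx,src DIO+OF replicate 3 or HBx,src,p53 DIO replicate 2, 9 without HBx,src DIO+OF replicate 1 and 5 without either HBx,src,p53 NOR array. Without any single HBx,src NOR array, which this difference does not hold, 2 calls were left and cyp27a1.2 was not among them. Signals were spread more widely in the HBx,src,p53 arrays, and after quantile normalisation over all arrays the differences were 3.47 for cyp46a1.3 (adjusted p = 0.0256), 1.54 for cyp27a1.4 (adjusted p = 0.0775) and 3.18 for cyp27a1.2 (adjusted p = 0.0534). Line and batch cannot be told apart in this comparison.

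**Figure D4:**
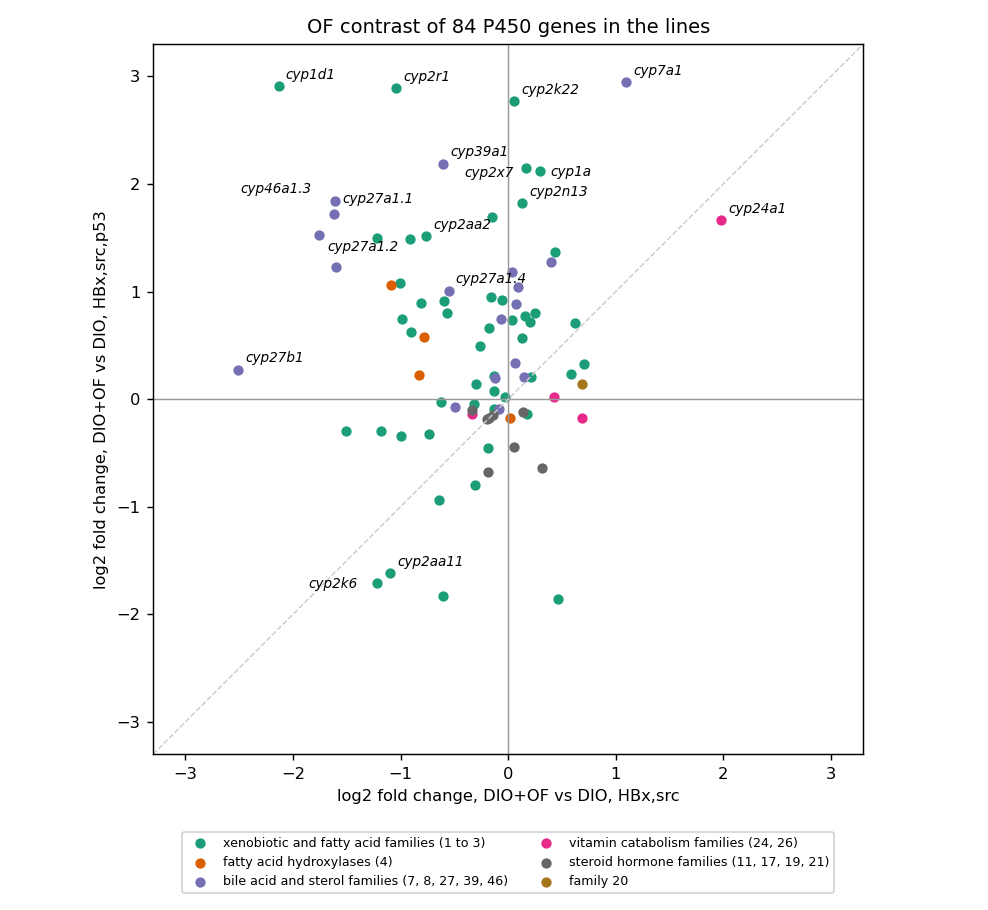
Log2 fold change of DIO+OF against DIO for 84 P450 genes, in HBx,src on the x axis and in HBx,src,p53 on the y axis, with a point for each gene, colours for the families and a dashed line of equal values. The upper left holds 32 genes that are above 0 in HBx,src,p53 and below 0 in HBx,src, among them cyp46a1.3, cyp27a1.1 and cyp27a1.2.

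Overfeeding alone, DIO against NOR, gave few calls among the P450 genes, with 2 or 3 NOR arrays in a line. In HBx,src,p53 1 of 84 was called, higher in DIO (1.19%, beside 3.00% of all genes), and at the threshold of the methods 6 were higher in DIO (7.14%) and 2 lower (2.38%), beside 3.19% and 6.59% of all genes. The median over the members was 0.14 with 50 above 0, against −0.007 over all genes. The DIO arrays also enter the OF comparisons, so the contrasts share them. The called gene was cyp2x10.2, of a subfamily found in fish, with 8.36, 9.08 and 9.36 in DIO arrays and 5.29 and 4.78 in NOR arrays (3.90 ± 0.81, adjusted p = 0.0236; 0.103 in the line alone). A further probe set of cyp2x10.2 was called too (4.45, adjusted p = 0.0104), and its remaining probe sets differed by 2.37 and 1.02. The call of cyp2x10.2 was lost without DIO replicate 2 or 3 or either NOR array of the line. In HBx,src, cyp2x10.2 had 7.73, 8.54 and 7.63 in DIO arrays and 7.62, 8.18 and 8.12 in NOR arrays. These overlapped, and the difference of the diet contrast between the lines was 3.91 ± 1.09 (adjusted p = 0.194). Members past the threshold of the methods without a call included cyp1c1, a relative of cyp1a, with 4.45, 4.00 and 3.61 in DIO arrays and 1.98 and 2.90 in NOR arrays of HBx,src,p53 (1.58 ± 0.45, adjusted p = 0.0799). They also included cyp2v1 (1.69 ± 0.48, adjusted p = 0.0818) and cyp2aa11 (2.16 ± 0.59, adjusted p = 0.0688), with the DIO arrays above the NOR arrays in both. The lower ones were cyp7a1, with 2.24, 2.08 and 2.21 in DIO arrays and 3.94 and 4.71 in NOR arrays (−2.15 ± 0.93, adjusted p = 0.259), and cyp2x7, with 5.62, 5.02 and 4.65 in DIO arrays and 7.07 and 6.26 in NOR arrays (−1.57 ± 0.52, adjusted p = 0.131). Without the array that lacked vtg2, cyp1c1 was called beside cyp2x10.2. The count was also 2 without DIO replicate 1 of HBx,src,p53 (with cyp2aa11) or DIO+OF replicate 1 or 3 of HBx,src (with cyp2v1), and it was 0 without DIO replicate 3 or NOR replicate 2 of HBx,src,p53. In the line alone cyp2v1 was the single call (adjusted p = 0.0464). Markers of other tissues were also compared across the diets in HBx,src,p53. Summed signals overlapped between DIO and NOR arrays for exocrine pancreas and ovary, and red cell sums were lower in DIO arrays. Intestine sums (8 genes) were lower too, from 6.84 to 7.29 in DIO arrays against 8.99 to 9.27 in NOR arrays. Of these intestine markers 1 was called lower and 3 were above 0 (median −0.12). Among the 10 hepatocyte markers 1 was called lower and 5 were above 0 (median 0.03). Exocrine pancreas markers were above 0 in 12 of 12 (median 1.15, 0 called by limma and 0 at an unadjusted p under 0.05), ovary markers in 11 of 12 (median 0.68, 1 called higher) and red cell markers in 0 of 6 (median −0.95, 0 called by limma, 1 at an unadjusted p under 0.05). Their part in the P450 values was not tested.

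In HBx,src, DIO against NOR gave 0 of 84 members called by limma, as over all genes (0%), with 4 at an unadjusted p under 0.05. At the threshold of the methods 2 were higher in DIO (2.38%) and 0 lower, beside 0.450% and 1.89% of all genes, and the median was 0.13 with 55 of 84 above 0, against −0.015 over all genes. The 2 genes were cyp2ad6, a neighbour of cyp2n13, with 6.89, 7.42 and 6.75 in DIO arrays and 6.30, 6.10 and 4.76 in NOR arrays (1.3 ± 0.36, adjusted p = 0.542), and cyp46a1.3, with 5.52, 5.43 and 6.09 in DIO arrays and 4.38, 4.57 and 4.46 in NOR arrays (1.21 ± 0.46, adjusted p = 0.712). The DIO arrays lay above the NOR arrays in both. No member was called in the difference of the diet contrast between the lines (0 of 84 by limma, with 7 at an unadjusted p under 0.05; 0.0622% of all genes), where the smallest p values belonged to cyp2x10.2, cyp2aa11 (2.34 ± 0.80, adjusted p = 0.302) and cyp24a1 (6.49 ± 2.33, adjusted p = 0.331). Without the array that lacked vtg2, cyp2x10.2 was called.

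The comparison of DIO+OF with NOR holds diet and treatment together. In HBx,src,p53 it gave 10 of 84 members called, all higher in DIO+OF (11.9%), beside 6.30% of all genes in either direction. At the threshold of the methods 20 members were higher (23.8%) and 1 lower (1.19%), beside 6.82% and 7.13% of all genes, and the median was 0.55 with 58 above 0, against 0.025 over all genes. NOR arrays of HBx,src,p53 gave 10.14 and 8.79 for cyp1a and 7.57 and 7.47 for cyp2n13, all under the DIO+OF values given above (cyp1a 2.2 ± 0.33, adjusted p = 0.0038; cyp2n13 1.82 ± 0.42, adjusted p = 0.0292). For cyp2x8, DIO+OF arrays gave 8.55, 9.28 and 8.71 and NOR arrays 6.85 and 6.11 (2.37 ± 0.45, adjusted p = 0.0122), and its other probe set was called as well (1.76, adjusted p = 0.00055). Of the 11 genes in the cluster of cyp2n13, 4 were called, cyp2n13 itself with cyp2v1, cyp2ad6 and cyp2ad3, while cyp2ad2 differed by −0.05 ± 0.27, cyp2j20 by −0.62 ± 0.48 and the cyp2p genes by 0.17 to 1.76 without a call. In cyp2v1 the signals were 6.65, 6.62 and 7.35 in DIO+OF arrays and 4.68 and 4.20 in NOR arrays (2.44 ± 0.48, adjusted p = 0.016). In cyp2ad6 they were 8.65, 8.99 and 7.94 in DIO+OF arrays and 6.85 and 6.77 in NOR arrays (1.72 ± 0.41, adjusted p = 0.0326), and cyp2ad3 differed by 1.34 ± 0.34 (adjusted p = 0.0426). The 4 called genes were brighter in every DIO+OF array than in either NOR array. Of the sterol genes, cyp27a1.2 rose by 2.47 ± 0.53 (adjusted p = 0.023), cyp27a1.1 by 2.67 ± 0.63 (adjusted p = 0.0321) and cyp46a1.3 by 1.96 ± 0.51 (adjusted p = 0.0488). Their NOR arrays gave 6.40 and 5.01 for cyp27a1.2, 7.47 and 5.12 for cyp27a1.1 and 5.98 and 4.52 for cyp46a1.3, so that the NOR pair was apart by more than 1 in each. The fatty acid hydroxylase gene cyp4v2b had 10.63, 10.45 and 10.60 in DIO+OF arrays and 9.86 and 8.98 in NOR arrays (1.14 ± 0.27, adjusted p = 0.0318). The calls of cyp46a1.3 and cyp2ad3 were lost without any single DIO array of HBx,src, the line not compared here. That of cyp46a1.3 was also lost without any single NOR array of HBx,src. In the line alone the count was 7. The count of 10 was 1 (cyp1a) without NOR replicate 2, 4 without DIO+OF replicate 2 and 6 without NOR replicate 1 or DIO+OF replicate 1 of HBx,src,p53. Without the array that lacked vtg2 it was 5 (cyp1a, cyp2x8, cyp2v1, cyp2ad6 and cyp2x10.2). Some of these calls were not among the 10. They were cyp8b1.3 without DIO+OF replicate 2, cyp2aa1 without DIO+OF replicate 1 and cyp2x10.2 without the array that lacked vtg2. In that last fit the median was 0.30. Marker sums were compared between DIO+OF and NOR arrays of HBx,src,p53 too. Hepatocyte sums ranged from 15.69 to 16.14 in DIO+OF arrays and from 15.55 to 15.64 in NOR arrays, without overlap. Ovary sums were lower in DIO+OF arrays (5.63 to 5.88 against 6.03 to 6.96), as were intestine sums (6.86 to 8.22 against 8.99 to 9.27). Exocrine pancreas and red cell sums overlapped. The part of these markers in the 10 calls was not tested.

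The same comparison in HBx,src gave 0 of 84 members called by limma (0.191% of all genes), with 6 at an unadjusted p under 0.05. At the threshold of the methods 1 member was higher (1.19%) and 3 lower (3.57%), beside 2.77% and 1.71% of all genes, and the median was −0.09 with 32 above 0, against −0.02 over all genes. The higher member was cyp1a, with 10.12, 9.69 and 10.12 in DIO+OF arrays and 9.16, 8.64 and 8.87 in NOR arrays (1.09 ± 0.29, adjusted p = 0.254). The DIO arrays of HBx,src gave 9.55, 9.59 and 9.91 for cyp1a, which overlapped with the DIO+OF arrays and not with the NOR arrays. The lower members were cyp27b1 (−2.26 ± 0.95), cyp2aa11 (−1.28 ± 0.53) and cyp2v1 (−1.01 ± 0.43).

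The vitamin genes had no call by limma in any comparison. The gene cyp24a1, which encodes the enzyme that inactivates vitamin D, spanned 8.07 log2 units over the 8 HBx,src,p53 arrays. Its signals were 8.78, 10.51 and 8.37 in DIO+OF arrays, 9.39, 3.39 and 9.87 in DIO arrays and 2.44 and 3.39 in NOR arrays. DIO replicate 2 thus stood with the NOR arrays, and neither DIO against NOR (4.64 ± 1.74, adjusted p = 0.187) nor DIO+OF against NOR (6.30 ± 1.74, adjusted p = 0.0626) was called. Without DIO replicate 2, cyp24a1 was called in both. In HBx,src, cyp24a1 gave 9.01, 7.39 and 4.32 in DIO+OF arrays, 2.7, 5.27 and 6.80 in DIO arrays and 6.54, 6.79 and 7.01 in NOR arrays, and all groups overlapped. The vitamin D receptor gene vdrb, no P450, had 7.48, 6.11 and 7.42 in DIO arrays and 4.49 and 3.45 in NOR arrays of HBx,src,p53, and it was called (3.03 ± 0.52, adjusted p = 0.0093). The retinoic acid clearing genes cyp26a1, cyp26b1 and cyp26c1 were dim, with no call by limma and 1 unadjusted p under 0.05 over the 8 comparisons. Of the 8 steroid hormone genes, 0 were called by limma in OF against DIO in HBx,src,p53 (2 at an unadjusted p under 0.05), 0 lay above 0 and the median was −0.18. These genes were dim. Apart from cyp17a2, and cyp11a1.1 in DIO replicate 2 (3.07), their signals in these arrays lay under the array medians. The ovarian aromatase gene cyp19a1a was at 2.08, 2.05 and 2.05 in DIO+OF arrays and at 2.38, 2.47 and 1.85 in DIO arrays, under the medians of those arrays. The orphan P450 gene cyp20a1 differed by 0.14 ± 0.36 with OF in HBx,src,p53 and by 0.69 ± 0.36 in HBx,src, with overlap in both. The drug-metabolising cyp3a65 had 8.63, 7.37 and 10.37 in DIO+OF arrays, 7.44, 9.13 and 6.56 in DIO arrays and 8.0 and 5.37 in NOR arrays of HBx,src,p53, and all of its groups overlapped. The family 4 genes had a median of 0.40 in OF against DIO in HBx,src,p53 and −0.80 in HBx,src, with 0 called by limma in either (2 and 3 of 4 at an unadjusted p under 0.05).

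The HBx,src,p53 array that lacked vtg2 also stood apart in the P450 genes. In it, 9 members lay more than 1 log2 unit above the range of the remaining 7 arrays of that line and 1 below it, 11.9% of the members against 4.39% of all genes. The highest was cyp2k22, with 10.98 in this array and 1.71 to 2.49 in the other 7, while cyp2k6, of the same subfamily, had 3.27 in this array and 7.85 to 10.32 in the others. Further members above the range were cyp1d1 (8.79, others 3.08 to 5.59), cyp2aa6 (7.16, others 2.90 to 5.50), cyp2aa4 (5.03, others 2.5 to 3.52), cyp2ae1 (6.06, others 3.68 to 4.67) and cyp46a1.2 (7.72, others 4.27 to 6.36). The remaining ones were cyp3a65, cyp2aa12 and cyp46a1.4. In every other array of either line, 0% to 3.57% of the members lay that far outside the range of the rest of their line.

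**Figure D5:**
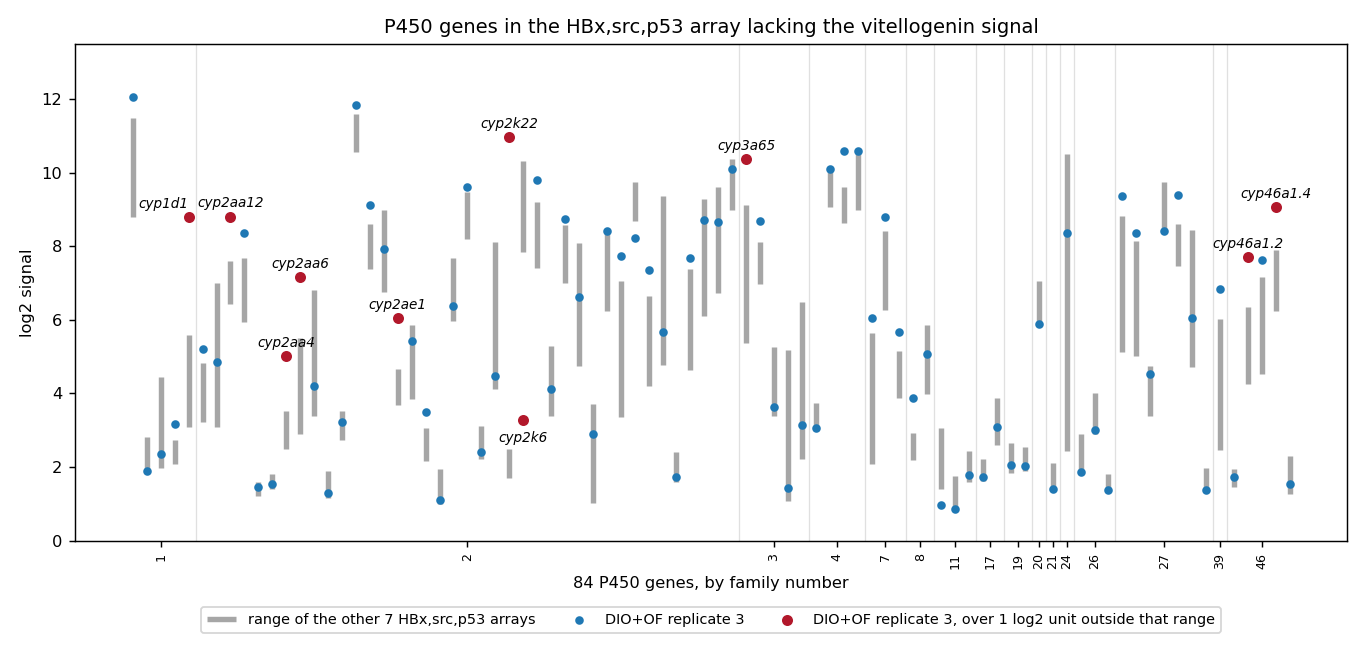
Log2 signal (y axis) of the 84 P450 genes, ordered by family number (x axis), in HBx,src,p53 DIO+OF replicate 3 (points) and the range of the remaining 7 HBx,src,p53 arrays (grey bars). Red points lie over 1 log2 unit outside the bar: 9 above it, with cyp2k22 farthest, and cyp2k6 below it.

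Genes that serve P450 enzymes or set their transcription were read beside the members. In OF against DIO in HBx,src,p53, 0 of 11 electron donor genes and 0 of 8 haem synthesis genes were called by limma (4 and 3 at an unadjusted p under 0.05). Haem genes went both ways. For alas1, DIO+OF arrays gave 9.98, 9.96 and 9.23 and DIO arrays 10.99, 11.31 and 11.59. For fech they gave 6.82, 6.41 and 6.55 against 5.77, 5.66 and 6.10. In DIO+OF against NOR of that line, 2 of 8 haem genes were called, beside 6.30% of all genes. In OF against DIO there, 5 of 35 receptors and transcription factors were called, all higher with OF, beside 2.35% of all genes. Among them was nr1d1, a repressor of the core circadian clock, with 9.41, 9.88 and 9.96 in DIO+OF arrays and 4.40, 5.73 and 5.51 in DIO arrays (4.54 ± 0.44, adjusted p = 0.00092). The others were nr1d2a and nr1d2b, related repressors, and dbpb and tefa, which encode factors under clock control. All 5 calls thus fell on clock repressors or factors under clock control. The list was chosen with earlier results of these data known, so its share says nothing about P450 regulators as a group. Of the related genes in the same list, dbpa (1.76 ± 0.47, adjusted p = 0.0847), tefb (0.99 ± 0.43, adjusted p = 0.301), hlfa (0.82 ± 0.36, adjusted p = 0.305) and hlfb (−0.53 ± 0.20, adjusted p = 0.216) were not called. In HBx,src, nr1d1 rose as well, with 8.12, 8.38 and 8.26 in DIO+OF arrays and 2.96, 5.02 and 4.29 in DIO arrays (4.17 ± 0.44, adjusted p = 0.007). The aryl hydrocarbon receptor gene ahr2 differed by 0.22 ± 0.28 with OF in HBx,src,p53, where cyp1a rose, and by 0.04 ± 0.28 in HBx,src. The pregnane X receptor gene nr1i2 differed by 1.57 ± 0.42 in HBx,src,p53 and was not called (adjusted p = 0.090). The retinoid X receptor gene rxrgb, a partner of several of these receptors, rose with overfeeding in HBx,src,p53 (2.44 ± 0.27, adjusted p = 0.0014) and fell with OF in HBx,src (−1.63 ± 0.24, adjusted p = 0.023). Of the 7 bile acid genes with no cyp symbol, 0 were called by limma with OF in HBx,src,p53 (4 at an unadjusted p under 0.05), and their median was 0.67.

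Of the 84 members, 28 had several probe sets, with 33 probe sets beside those used. In OF against DIO these had the sign of the probe set used in 25 of 33 cases in HBx,src,p53 and in 26 of 33 in HBx,src. In the difference of OF between the lines the count was 31 of 33, and a further probe set of cyp27a1.2 was called there (2.82, adjusted p = 0.0287).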

How the data were processed

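Liver RNA of 17 samples was hybridised to ZebGene 1.1 ST arrays. The authors deposited 1 log2 signal for each of 75212 probe sets and array; the submitters' processing notes name the Transcriptome Analysis Console, and neither an algorithm or version nor a build is given in the sources used here. No missing values were found, no further normalisation was applied, and detection limits are not known, so the number of arrays limits the precision. Symbols came from the platform annotation: 30358 probe sets had 1 symbol, 1015 several and 43839 were not listed. Of the symbols, 27940 could be checked by identifier against the RefSeq gene table of GRCz12tu, and 1 was updated. The 84 P450 genes had 117 probe sets; 4 probe sets with several symbols that included a cyp name were left out.

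Groups came from the labels. Tests were made with limma 3.58.1 in R 4.3.3: 1 mean for each group over all 17 arrays, empirical Bayes, and Benjamini-Hochberg adjustment over all probe sets. The test was first checked on simulated data. Named genes were the called members (at most 10 for each comparison), filled up to 5 with the smallest p at the threshold of the methods, the brightest member of each family and a list of well known P450 genes; other members are named where counts single them out, after their values were seen. Members, gene lists and role groups were chosen with earlier results of these data known. Alternatives were the line alone, quantile normalisation, centring, a filter on the 40% dimmest probe sets, a robust trended prior, array weights, tests on probe sets of 1 symbol alone, a replicate block, other choices of probe set and omission of single arrays. Counting probe sets with equal values once was added after seeing the data. Tables and figures were made with Python 3.11.15, pandas 2.3.3 and matplotlib 3.10.9.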

Additional observations from a re-analysis of the deposited data

Results flagged for a closer look

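The effect of OF differed between the lines in 3 P450 genes, by a test of the difference itself in limma (HBx,src,p53 contrast minus HBx,src contrast). The difference was 3.46 on the log2 scale for cyp46a1.3, 3.29 for cyp27a1.2 and 1.56 for cyp27a1.4. Line and batch cannot be told apart, and none of the 3 was called without the HBx,src,p53 array that lacked vtg2. The count was also 0 without any of several other single arrays of either line. It was 0 with the replicate block and 1 after quantile normalisation.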

How the results depend on the processing

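No gene named as called, or filled in by its p, reversed its sign under any alternative in the comparison that named it. Smaller differences of other named genes could reverse, as that of cyp20a1 with OF in HBx,src,p53 did without DIO+OF replicate 1 of that line. The median over the 84 members kept its sign in every comparison except the difference of diet between the lines, where it was 0.03 and reached −0.131 without HBx,src,p53 NOR replicate 2. The median of the vitamin families changed sign, for OF in HBx,src,p53 with 0.01 after centring against −0.06, and for diet in HBx,src,p53 with −0.01 after quantile normalisation and −0.02 after centring against 0.01. The count for OF against DIO in HBx,src,p53, 5, was 1 in the line alone, 3 after quantile normalisation, 3 with a trended and robust prior and 1 with the replicate block. The count for DIO against NOR in HBx,src,p53, 1, was 2 with the filter on dim probe sets, with array weights and with the replicate block. The count for DIO+OF against NOR in HBx,src,p53, 10, was 3 with the replicate block. The difference of OF between the lines, 3, was 1 after quantile normalisation, 5 with the dim filter, 10 with probe sets of 1 symbol, 1 with a trended and robust prior, 0 with the replicate block (limma) and 5 when any probe set of a gene counted. At the threshold of the methods, OF in HBx,src gave 13 genes after quantile normalisation against 7. The cause of these shifts was not tested.

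Leaving out each array in turn gave 0 to 2 calls for OF in HBx,src (7 to 12 at the threshold of the methods), 1 to 6 for OF in HBx,src,p53 (14 to 25), 0 to 2 for diet in HBx,src,p53 (6 to 12), 1 to 12 for DIO+OF against NOR in HBx,src,p53 (17 to 26), 0 to 1 for the difference of diet and 0 to 9 for the difference of OF. In HBx,src it gave 0 calls for diet (1 to 5) and for DIO+OF against NOR (1 to 8). Same-numbered arrays correlated at −0.082 to 0.098 in their deviations from group means, and other pairs of arrays at −0.118 to 0.16. With 2 or 3 arrays in a group, these values cannot decide whether replicate numbers pair the arrays. Among the named genes' values, called ones kept their call in 369 cases and lost it in 141, and uncalled ones stayed so in 473 and passed the threshold in 10.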

Other observations

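One probe set was annotated to both cyp8b1.1 and cyp8b1.2, copies of the sterol hydroxylase that sets the share of cholic acid in mammals, and was left out of the members. Its log2 signals in HBx,src,p53 were 8.39, 8.47 and 9.17 in DIO+OF arrays, 7.39, 7.04 and 7.43 in DIO arrays and 7.68 and 7.10 in NOR arrays. In HBx,src they were 7.62, 6.94 and 7.82 in DIO+OF arrays, 7.21, 7.49 and 7.36 in DIO arrays and 7.55, 7.20 and 7.56 in NOR arrays. All DIO+OF arrays lay above the DIO arrays in HBx,src,p53, and the groups overlapped in HBx,src.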
